A study of Homo sapiens with 14 samples.

Results

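AsPC-1 cells exposed to epidermal growth factor (EGF) for 24 h differed from both of the AsPC-1 libraries that stood nearest to an unstimulated state, the untreated mock and 24 h of angiogenin (ANG). Gene by gene, the EGF 24 h library was set against each of these 2 references, and a difference counted when it had the same sign against both. Of 23040 genes listed, 11479 had a span of at least 400 bp and had at least 1 RPKM (a read density scaled to transcript length in kilobases and to M mapped reads) in at least 1 of the 3 libraries, and 10146 of these had the same sign against both references. AsPC-1 is an established epithelial line from a pancreatic adenocarcinoma.

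The series measured total RNA, extracted with TRIzol, by RNA sequencing in AsPC-1 and in a second pancreatic cancer line, Panc-1, as 14 libraries. The EGF 24 h cells received EGF at 50 ng/ml and the ANG 24 h cells received ANG (also named RNase 5, a secreted ribonuclease) at 1 µg/ml, both without serum. The labels give mock as untreated and state neither its time nor whether serum was withdrawn. The doses of the ligands differ, and each group is 1 library, so no difference within AsPC-1 has a replicate check or a p-value.

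EGF binds the receptor EGFR, a tyrosine kinase that signals through RAS, RAF, MEK and ERK and through PI3K and AKT. ERK drives early transcription factors such as EGR1 and the AP-1 protein FOSL1, and also the feedback inhibitors of the same pathway. AKT keeps the FOXO transcription factors out of the nucleus, where they would otherwise raise genes of insulin signalling and quiescence. In pancreatic cancer the receptor is linked to growth, invasion and loss of differentiated epithelial features.

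Estimated depth was 19.9 to 23.7 M reads in these 3 libraries, and 1 read in 2 kb of transcript was worth 0.0211 to 0.0251 RPKM. Genes under 400 bp took 6.03% of the reads in mock, 11.6% in ANG 24 h and 13.5% in EGF 24 h, reads that count in the total behind every RPKM. All 10 epithelial markers were detected, with a summed level of 2339 RPKM in mock, 2289 in ANG 24 h and 2278 in EGF 24 h. The level sum was mostly KRT8, KRT18 and KRT19 and hides differences between members. Of the 10, 6 were under both references (60%, against 62.7% of all genes tested) and 2 above both (20%, against 25.7%). CLDN4 was at 270, 277 and 154 RPKM and EPCAM at 218, 212 and 149, while KRT19 was at 362, 376 and 522. Of 10 fibroblast markers 6 were listed at 0 in all 3 libraries, COL1A1, COL1A2 and PDGFRA among them, and the summed level of 33.1 to 46.7 RPKM was almost all LUM. Of 10 immune markers 4 were at 0, including the leukocyte antigen PTPRC, and the summed level of 546 RPKM in mock, 519 in ANG 24 h and 245 in EGF 24 h was mostly LYZ, a lysozyme. AsPC-1 is an epithelial line, so LYZ is read here as RNA of its own cells. In these bulk libraries fewer AsPC-1 cells with LYZ and less LYZ RNA per cell cannot be told apart. Of 8 endothelial markers 4 were at 0 and the sum did not exceed 4.25 RPKM, and of 9 acinar and islet markers 6 were at 0 with a sum of at most 0.98 RPKM. In genes such as LAMB3, TGFA and SDPR, whose courses are given later, the 1 h and 5 h libraries of both ligands stood apart from mock and ANG 24 h.

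After 24 h of EGF, 82 genes stood at least 2-fold higher than in both references on the log2(RPKM + 1) scale (0.714% of the genes tested) and 245 stood at least 2-fold lower (2.13%). Against mock alone 98 genes were higher (0.854%) and 356 lower (3.10%), and against ANG 24 h alone 111 (0.967%) and 276 (2.40%). The references differed far less from each other: 6 genes were at least 2-fold higher in ANG 24 h than in mock (0.0523%) and 0 were lower (0.00%). The higher genes had median levels of 11.7 RPKM in mock, 11.03 in ANG 24 h and 30.6 in EGF 24 h. The lower genes had median levels of 14.5, 12.9 and 3.88 RPKM. Among the 82 higher genes ANG 24 h differed from mock by -0.31 to 0.14 (log2), and among the 245 lower genes by -0.60 to 0.31. At any size, 2948 genes were higher than both references (25.7%) and 7198 were lower (62.7%).

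The excess of lower genes depended on how the libraries were scaled. Over all genes tested the median log2 difference was -0.19 from mock and -0.13 from ANG 24 h, and medians of gene lists are to be read against these values. Rescaled to a common sum over genes of at least 400 bp, which leaves the short genes' reads out of the total, the medians were -0.13 and -0.11, with 91 genes higher and 224 lower. With each library centred on its median the 2-fold counts became 168 higher and 149 lower, so that higher genes made up 53% of the calls in place of 25.1%. Another setting, chosen after the data were seen, scaled by the median ratio of genes of at least 10 RPKM. It also raised the filter for genes tested to at least 10 RPKM in at least 1 of the 3 libraries. The counts were then 83 and 122 (40.5% higher), and the parts of scale and filter in this were not separated. Around the threshold, CEBPB (1.01) lay just inside on the higher side and P2RY2 (0.9998) and ITGA6 (0.99) just outside. On the lower side LZTFL1 (-1.002) and ABP1 (-1.005) lay inside and BAIAP3 (-0.998) and CAT (-0.999) outside, each value being the smaller in size of the 2 log2 differences.

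**Figure D1:**
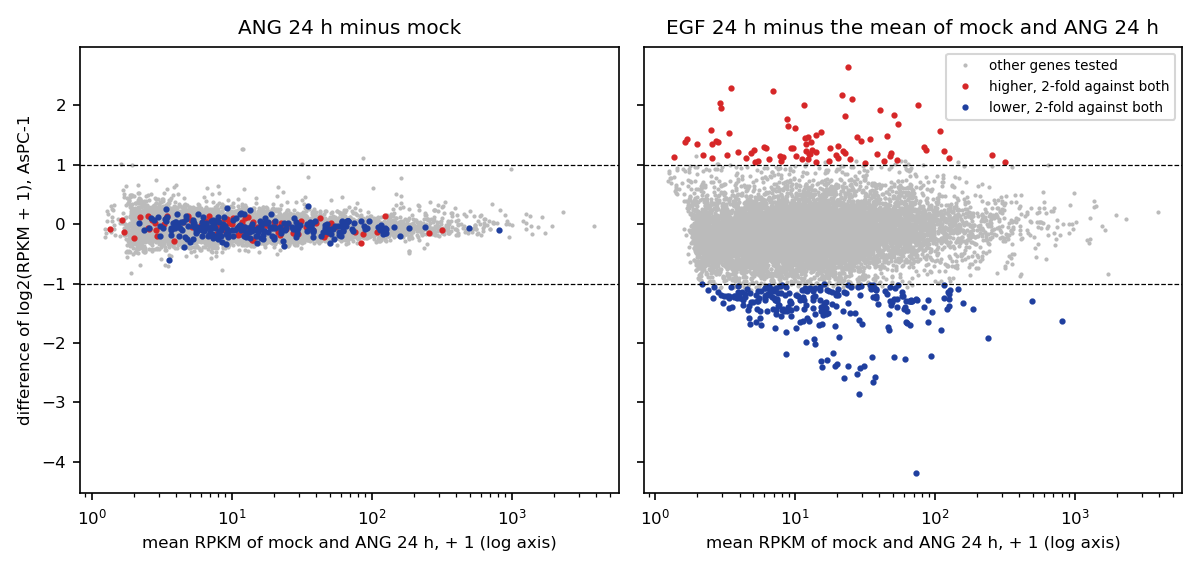
Log2(RPKM + 1) differences in AsPC-1 (vertical) against the mean RPKM of mock and ANG 24 h plus 1 (horizontal, log axis), 1 point per gene, for ANG 24 h minus mock at left and EGF 24 h minus the mean of the references at right. Red marks the 82 genes at least 2-fold higher against both references and blue the 245 lower ones, which lie within -0.60 and 0.31 at left.

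Of the 245 lower entries, 11 overlapped another lower entry on the same strand, and 9 of these were UGT1A isoform entries of 1 locus on chromosome 2 whose spans overlap and end within a few bases of each other. The UGT1A entries, glucuronosyltransferases, stood at 59.3 to 88.0 RPKM in mock, 61.6 to 86.5 in ANG 24 h and 24.0 to 35.3 in EGF 24 h, and reads may be shared between them. None of the 82 higher genes overlapped another one.

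The highest gene was DHRS9, a retinol and steroid dehydrogenase (hg19, chr2:169921299-169952677, plus strand). It stood at 23.3 RPKM in mock, 22.3 in ANG 24 h and 147 in EGF 24 h, a log2 difference of 2.61 from mock and 2.67 from ANG 24 h. BMP6, a bone morphogenetic protein, stood at 2.30, 2.62 and 16.01 RPKM in the same order. In both genes the references lay close together and EGF 24 h lay far above them. G0S2, an inhibitor of triglyceride breakdown, was at 5.56, 6.23 and 31.5 RPKM. The cyclin-dependent kinase inhibitor CDKN1A (p21) was at 24.3, 24.4 and 108 RPKM, a difference of 2.10 from each reference. ODC1, which starts polyamine synthesis, was at 38.8, 39.4 and 152 RPKM. SMOX, which oxidises the polyamine spermine, was also past 2-fold, at 7.20, 6.30 and 16.2 RPKM. THBD (thrombomodulin), a cell surface receptor of thrombin, was at 11.2, 9.80 and 45.1 RPKM.

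The lowest gene was SDPR (CAVIN2), a coat protein of caveolae (chr2:192699032-192712006, minus strand). It stood at 73.9 RPKM in mock, 69.6 in ANG 24 h and 2.98 in EGF 24 h, a log2 difference of -4.23 from mock and -4.15 from ANG 24 h. The placental-type alkaline phosphatase ALPPL2 was at 27.2, 27.9 and 2.92 RPKM and its neighbour ALPP at 16.6, 15.2 and 2.45. These are near-identical genes side by side on chromosome 2, and reads may be split between them. SPNS2, which exports sphingosine 1-phosphate, was at 34.9, 35.5 and 4.75 RPKM. SLC40A1 (ferroportin), which exports iron, was at 36.6, 35.5 and 5.23 RPKM. LGR5, a receptor of R-spondins, stood at 27.3, 25.8 and 3.77 RPKM. The transcription factor MYB stood at 14.8, 13.7 and 2.08 RPKM. APOBEC1, the cytidine deaminase that edits APOB mRNA, stood at 15.02, 13.98 and 1.91 RPKM. SEPP1 (SELENOP), a selenium carrier, was at 25.7, 19.7 and 3.49 RPKM, and PDZK1IP1, a small membrane protein, was at 59.2, 61.1 and 11.6.

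**Figure D2:**
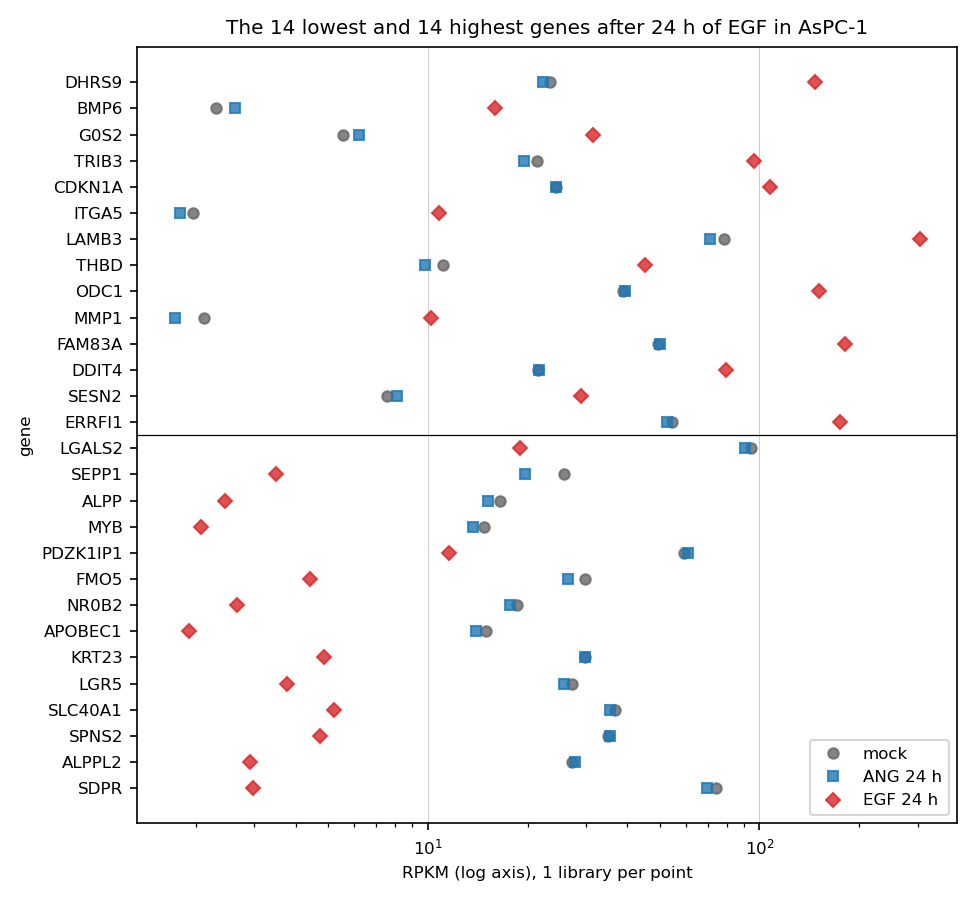
RPKM (log axis) of the 14 highest and 14 lowest genes in AsPC-1, 1 library per point, with mock in grey, ANG 24 h in blue and EGF 24 h in red. The grey and blue points lie close together, from CDKN1A at 24.3 and 24.4 RPKM to SEPP1 at 25.7 and 19.7, while EGF 24 h lies to the right above the line and to the left under it.

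The ligands and receptors of the EGFR family lay on both sides of the references. Of 9 tested genes 3 were at least 2-fold higher and 1 lower, against 2.85% of all genes tested past 2-fold either way. The higher ones were all ligands of EGFR. Epiregulin (EREG, chr4:75230860-75254477, plus strand) stood at 8.10 RPKM in mock, 7.52 in ANG 24 h and 26.6 in EGF 24 h. Transforming growth factor alpha (TGFA) stood at 27.9, 25.1 and 74.7 RPKM. Heparin-binding EGF-like growth factor (HBEGF) stood at 10.9, 9.42 and 22.9 RPKM. EGF itself was listed at 0 in all 3 libraries. Among the receptors EGFR was level at 146, 138 and 149 RPKM. ERBB3, its kinase-impaired partner, was lower at 168, 146 and 62.0 RPKM. ERBB2 was at 33.7, 30.9 and 15.7 RPKM and did not reach 2-fold against ANG 24 h (-0.93).

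The feedback list of the pathway lay on both sides too: of 21 tested 4 were at least 2-fold higher and 1 lower, with medians of 0.21 against each reference. Besides feedback inhibitors it holds other genes, among them the transcription factors ETV4 and ETV5. Over all genes tested 0.714% were at least 2-fold higher and 2.13% lower. ERRFI1 (MIG6), which binds and inhibits the EGFR kinase (chr1:8071779-8086393, minus strand), stood at 54.5 RPKM in mock, 52.6 in ANG 24 h and 175 in EGF 24 h. The cytokine signalling inhibitor SOCS2 was at 1.55, 1.45 and 6.53 RPKM. The ERK and JNK phosphatase DUSP1 was at 8.0, 8.56 and 21.6 RPKM, and DUSP7 at 19.5, 19.2 and 43.2. By contrast the ERK phosphatase DUSP6, one of the usual readouts of ERK activity, was at 215, 204 and 188 RPKM. The inhibitor SPRY1 was lower, at 16.6, 13.96 and 4.81 RPKM. Of 21 immediate-early genes 2 were higher, FOSL1 at 18.9, 18.3 and 42.9 RPKM and EGR1 at 5.40, 5.61 and 12.9 RPKM. The nuclear receptor NR4A2 was lower at 14.5, 15.1 and 4.5 RPKM. MYC (153, 142 and 173 RPKM) and CCND1 (64.6, 63.6 and 75.1 RPKM) were under 2-fold.

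The matrix and adhesion genes held the second largest list median. Counts in this paragraph are read against 0.714% of all genes tested past 2-fold higher and 2.13% lower. Of 17 integrin and laminin genes 4 were higher and 1 lower, with medians of 0.61 from mock and 0.59 from ANG 24 h. Laminin chains of the epithelial basement membrane were among the higher ones. LAMB3 was at 78.4, 71.1 and 304 RPKM and LAMA3 at 47.7, 41.1 and 126. ITGA5, the alpha chain of the fibronectin receptor, was at 1.97, 1.79 and 10.8 RPKM. ITGB8, an integrin chain that activates latent TGF-beta, was lower at 63.6, 59.3 and 18.6 RPKM. Of 11 genes of invasion 3 were higher and 0 lower. Interstitial collagenase MMP1 was at 2.12, 1.73 and 10.3 RPKM and urokinase PLAU at 30.3, 27.1 and 77.2. Tenascin C (TNC; 11.9, 10.6 and 32.8 RPKM) and the transcription factor SNAI2 (22.4, 19.6 and 50.6 RPKM) were 2 of 7 genes of the mesenchymal list past 2-fold. Of 23 cytoskeletal genes of the YAP and SRF list 3 were higher, among them the actin crosslinker FLNA (116, 112 and 269 RPKM) and the actin gene ACTG1 (268, 243 and 573 RPKM). S100A14 (14.5, 13.9 and 43.6 RPKM) and S100A2 (11.1, 10.8 and 29.3 RPKM) were 2 of 9 S100 genes past 2-fold.

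The list with the highest median held genes of the amino acid response, which the transcription factor ATF4 drives when amino acids are short or the endoplasmic reticulum is stressed. Of 20 tested 7 were at least 2-fold higher, against 0.714% of all genes tested, and 0 lower. Above both references were 19 (95%, against 25.7% of all genes), and 0 were under both. The medians were 0.75 from mock and 0.88 from ANG 24 h. TRIB3, a pseudokinase that restrains AKT and ATF4 (chr20:361308-378203, plus strand), was at 21.4, 19.5 and 95.9 RPKM. DDIT4 (REDD1), an inhibitor of mTORC1, was at 21.4, 21.7 and 79.1 RPKM, and SESN2, the leucine sensor sestrin 2, at 7.55, 8.06 and 29.0. The other members past 2-fold were an enzyme of asparagine synthesis, ASNS (91.1, 73.1 and 201 RPKM), the amino acid transporter SLC7A5 (8.50, 8.64 and 22.2 RPKM), CTH, which makes cysteine (4.28, 4.08 and 9.69 RPKM), and the transcription factor CEBPB (29.8, 30.9 and 63.3 RPKM). The tRNA synthetases, several of them ATF4 targets, had 0 of 18 past 2-fold. Yet 14 were above both references (77.8%, against 25.7% of all genes) and 3 under both, with medians of 0.35 and 0.58. GARS, for glycine, was the member with the highest level in EGF 24 h, at 123, 102 and 194 RPKM. Chaperones of the endoplasmic reticulum had 0 of 18 past 2-fold in either direction and medians of 0.06 and 0.18.

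The FOXO targets had the lowest median of the 33 lists. Of 19 tested 0 were at least 2-fold higher and 6 lower, against 2.13% of all genes tested past 2-fold lower. Under both references were 17 (89.5%, against 62.7% of all genes), and 2 were above both. The medians were -0.80 from mock and -0.67 from ANG 24 h. PDK4, which blocks pyruvate oxidation, was at 13.3, 12.5 and 3.88 RPKM, and IRS2, an adaptor of the insulin receptor, at 15.6, 16.8 and 5.10. PIK3IP1, an inhibitor of PI3K, was at 7.24, 6.19 and 2.01 RPKM, and KLHL24 at 8.56, 8.06 and 2.72. BCL6, a transcriptional repressor (9.89, 9.16 and 3.56 RPKM), whose call was lost with centred libraries, and ERBB3, given with the receptors, were the other 2. CDKN1B (p27), the FOXO target that holds cells in G1, was at 33.8, 31.6 and 19.5 RPKM.

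**Figure D3:**
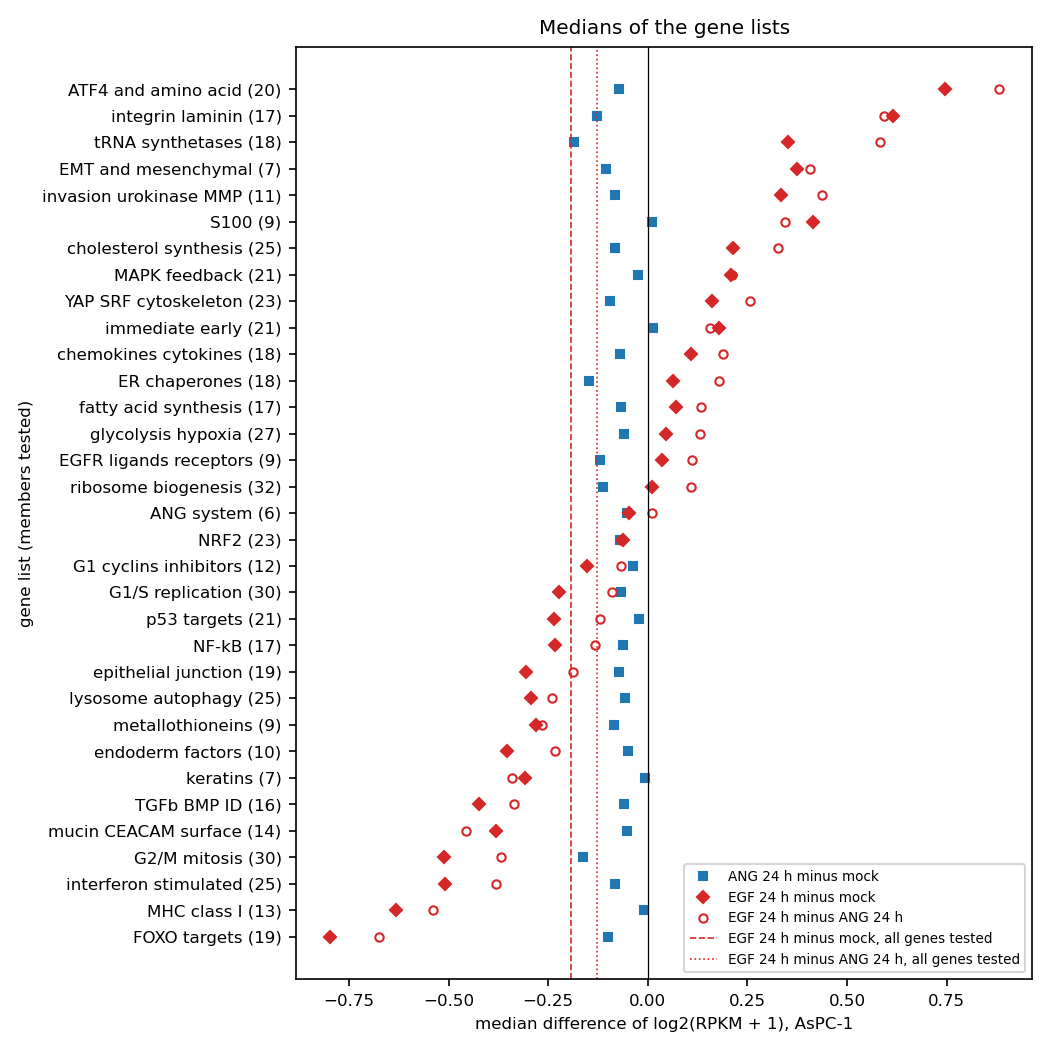
Median log2(RPKM + 1) difference in AsPC-1 of each of 33 gene lists, with the number of members tested in brackets. Filled red is EGF 24 h minus mock, open red EGF 24 h minus ANG 24 h and blue ANG 24 h minus mock, and the broken and dotted lines give the medians over all genes tested (-0.19 and -0.13); the amino acid response list lies at the top (0.75 and 0.88) and the FOXO targets at the bottom (-0.80 and -0.67).

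Lists of differentiated epithelium are read against the 62.7% of all genes that were under both references and the 2.13% past 2-fold lower. Of 10 endoderm transcription factors 0 were above both references and 9 under both (90%), and FOXA1 was past 2-fold at 9.86, 8.42 and 2.01 RPKM. CDX2, an intestinal factor, was at 5.98, 6.53 and 3.02 RPKM. Of 19 genes of epithelial junctions 15 were under both references (78.9%), and 3 were past 2-fold lower and 0 higher. The claudin CLDN3 was at 30.5, 38.1 and 6.44 RPKM, CLDN1 at 35.1, 32.3 and 15.3, and the junction scaffold TJP3 at 28.7, 27.9 and 13.2. CLDN1 and TJP3 lay near the threshold and were no longer past it with centred libraries, which left 1 of the 3. Of 14 mucins and surface glycoproteins 10 were under both references (71.4%), and 3 were past 2-fold lower and 1 higher. The tetraspanin TSPAN8 was at 837, 784 and 261 RPKM, the mucin MUC13 at 57.5, 48.0 and 19.4, and AGR2, an isomerase that folds mucins, at 147, 142 and 67.5, a call lost with centred libraries. The adhesion molecule CEACAM1 was on the other side at 38.4, 35.9 and 85.0 RPKM. Of 7 keratins 4 were under both references (57.1%) and 1 was past 2-fold, KRT23 at 29.9, 29.7 and 4.88 RPKM, while KRT19 was at 362, 376 and 522. LYZ was at 503, 478 and 199 RPKM while PTPRC stayed at 0.

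The cell cycle lists had no member past 2-fold except CDKN1A. Of 30 genes of G2 and mitosis 27 were under both references (90%, against 62.7% of all genes) and 1 above both, with medians of -0.51 and -0.37. CENPF, a kinetochore protein, was at 50.1, 42.3 and 21.4 RPKM, under 2-fold against ANG 24 h. Of 30 genes of G1/S and replication 20 were under both (66.7%, close to the share of all genes) and 5 above both, with medians of -0.22 and -0.09, and the sign of that median turned when libraries were centred. Of 21 targets of p53 only CDKN1A and SESN2 were past 2-fold, both higher, against 0.714% of all genes tested. Of the 21, 11 were under both references (52.4%, against 62.7% of all genes tested). The p53 list's median changed sign between settings.

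Of 13 genes of MHC class I presentation 12 were under both references (92.3%, against 62.7% of all genes), 0 of them past 2-fold, with medians of -0.63 and -0.54. The immunoproteasome subunit PSMB9 was at 8.01, 10.5 and 3.58 RPKM. Of 25 interferon-stimulated genes 19 were under both references (76%), and IFITM1 (16.6, 14.6 and 5.21 RPKM) and IFIT3 (9.39, 8.74 and 3.42 RPKM) were past 2-fold, against 2.13% of all genes, IFIT3 not when libraries were centred. Of 17 genes of the NF-kB list NFKBIZ (11.4, 10.7 and 2.03 RPKM) and TNFAIP2 (18.8, 18.2 and 6.47 RPKM) were lower, against 2.13% of all genes. The deubiquitinase TNFAIP3 (12, 10.8 and 25.6 RPKM) was higher, against 0.714% of all genes. None of 18 chemokines and cytokines was past 2-fold.

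In the TGF-beta and BMP list of 16, BMP6 and the BMP target ID1 (16.5, 16.3 and 35.2 RPKM) were higher while BMP4 was lower, at 188, 179 and 67.6 RPKM. This and the next lists are read against 0.714% of all genes past 2-fold higher and 2.13% lower. Cholesterol synthesis had 0 of 25 past 2-fold, with 19 above both references (76%, against 25.7% of all genes) and medians of 0.21 and 0.33. The fatty acid list had 1 of 17 past 2-fold, the carboxylase ACACB at 3.19, 3.12 and 0.88 RPKM. With centred libraries that call was lost and the elongase ELOVL1 (81.9, 78.8 and 161 RPKM) was past 2-fold higher. Glycolysis (27 tested), ribosome biogenesis (32) and metallothioneins (9) had 0 past 2-fold. The NRF2 list had 1 of 23 lower, the glutathione peroxidase GPX2 at 115, 114 and 55.9 RPKM, a call lost with centred libraries, under which the list's median also changed sign. The lysosome and autophagy list had 1 of 25 higher, the kinase ULK1, which starts autophagy, at 4.40, 4.37 and 10.2 RPKM. In the list of ANG and its partners RNASE4 was lower at 7.14, 5.99 and 1.89 RPKM. Its span overlaps that of ANG (2.47, 3.14 and 1.81 RPKM) on the same strand, so reads of these 2 genes are uncertain.

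Promoters bear on the lists because AP-1 and FOXO are described by short DNA motifs. RefSeq promoters (GRCh38.p14, 250 bases before to 50 after the start) were matched for 58 of the 82 higher and 181 of the 245 lower genes. The AP-1 motif TGANTCA, read on both strands, was in 5 of the 58 (8.62%) and in 8 of the 181 (4.42%), against 4.40% of the promoters of genes tested and 7.76% of all 27305 promoters. The amino acid response motif TGATGNAA was in 1 of 58 (1.72%) and 6 of 181 (3.31%), against 1.63% of genes tested and 3.67% of all. The forkhead motif GTAAACA was in 0 of 58 and 4 of 181 (2.21%), against 2.28% and 3.41%. No motif overlaps another as written, and a match is a description of letters, not a binding site. The promoters of 2 higher genes and 1 lower gene are shown as examples, each with 1 AP-1 match, in capitals. The lower genes APOBEC1 and KLHL24 also carry 1 AP-1 match each and are not shown, so the choice does not reflect the balance between directions. The minus strand windows are ITGA5 at chr12:54419217-54419516, S100A2 at chr1:153565795-153566094 and MUC13 at chr3:124934702-124935001, and the matches begin at positions -6, -52 and -178 from the start site.
ITGA5: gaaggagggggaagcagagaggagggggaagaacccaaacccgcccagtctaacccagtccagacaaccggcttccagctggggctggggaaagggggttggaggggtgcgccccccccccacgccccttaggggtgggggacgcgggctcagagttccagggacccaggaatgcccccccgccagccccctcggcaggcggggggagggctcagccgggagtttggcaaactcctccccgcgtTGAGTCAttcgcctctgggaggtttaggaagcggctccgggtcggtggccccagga
S100A2: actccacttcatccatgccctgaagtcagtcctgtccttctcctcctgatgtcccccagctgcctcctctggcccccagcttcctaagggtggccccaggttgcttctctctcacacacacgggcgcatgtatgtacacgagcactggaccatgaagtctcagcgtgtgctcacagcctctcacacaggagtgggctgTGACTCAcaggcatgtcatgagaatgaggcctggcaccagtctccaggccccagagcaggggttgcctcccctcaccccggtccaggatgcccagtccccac
MUC13: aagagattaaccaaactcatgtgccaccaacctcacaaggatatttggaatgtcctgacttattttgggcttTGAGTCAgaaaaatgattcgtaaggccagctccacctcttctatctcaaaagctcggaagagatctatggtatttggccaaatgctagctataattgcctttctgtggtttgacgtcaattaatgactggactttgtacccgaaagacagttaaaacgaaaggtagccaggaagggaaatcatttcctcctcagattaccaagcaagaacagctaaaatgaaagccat

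The 1 h and 5 h AsPC-1 libraries, which played no part in choosing the genes, were compared as EGF against ANG at the same time. Of the 82 higher genes, 10 were at least 2-fold above ANG at 1 h (12.2%), against 0.357% of all genes tested, and 10 at 5 h (12.2%), against 0.192%. At any size 67 of 82 were above ANG at 1 h (81.7%; 51.2% of all genes) and 78 of 82 at 5 h (95.1%; 59.5%). Of the 245 lower genes, 3 were at least 2-fold under ANG at 1 h (1.22%; 0.0697% of all) and 8 at 5 h (3.27%; 0.183%). At any size 134 of 245 were under ANG at 1 h (54.7%; 48.3%) and 207 of 245 at 5 h (84.5%; 40.1%). Thus 65 of the 82 and 234 of the 245 were past 2-fold at neither earlier time. Genes under 400 bp took 17.2% of the reads in ANG 5 h and 5.29% in EGF 5 h. Rescaled to a common sum without those reads, 4 of the 82 higher genes were at least 2-fold above ANG at 5 h (4.88%; 0.0786% of all genes) and 74 of 82 were above it at any size (90.2%; 32.5%). With centred libraries these counts were 8 (9.76%; 0.131%) and 76 (92.7%; 50.3%). For the 245 lower genes the same rescaling left 10 at least 2-fold under ANG at 5 h (4.08%; 0.28%) and 228 under it at any size (93.1%; 67.5%).

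The early libraries of both ligands often lay on the same side of the references as EGF 24 h. ANG 5 h was at or above EGF 24 h in 43 of the 82 higher genes and EGF 5 h in 56. ANG 5 h was at or under EGF 24 h in 108 of the 245 lower genes and EGF 5 h in 146. A called gene counted here lay on the side of EGF 24 h against both references, because EGF 24 h was itself past 2-fold from them. The EGF 24 h values had chosen these genes, and the same shares over all genes tested were not computed. LAMB3 is an example: 242 and 327 RPKM with ANG at 1 h and 5 h, 373 and 581 with EGF, then 71.1 with ANG and 304 with EGF at 24 h. TGFA stood at 126 and 138 RPKM with ANG at 1 h and 5 h, 141 and 242 with EGF, and 25.1 and 74.7 at 24 h. SDPR was at 4.12 and 3.82 RPKM with ANG, 2.72 and 0.64 with EGF, and 69.6 and 2.98 at 24 h. In these genes ANG 24 h lay near mock while EGF 24 h lay nearer to the early libraries. Whether EGF 24 h kept an early level or reached it anew cannot be read from 1 library a time, and what sets the early libraries of both ligands apart from mock was not tested.

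A smaller set of genes was apart in EGF 24 h alone. EGF 24 h was the highest of the 7 AsPC-1 libraries in 24 of the 82 higher genes and the lowest of 7 in 95 of the 245 lower genes. The rule had already placed these genes past 2-fold from mock and ANG 24 h. Counts in this paragraph describe the called genes only, as the same shares over all genes tested were not computed. EGF 24 h held at least 2 times the RPKM of every other library in 9 higher genes, named here after their values were seen: CTH, ERRFI1, IL1RL1, MYH16, SESN2, SLC1A4, SMOX, TRIB3 and ULK1. TRIB3 was at 5.25 and 4.92 RPKM with ANG at 1 h and 5 h and at 6.16 and 4.78 with EGF, under the 21.4 of mock, and then at 95.9 in EGF 24 h. SESN2 was at 2.22 to 3.34 RPKM in the 4 early libraries and at 29.0 in EGF 24 h. ERRFI1 was at 21.6 to 43.1 RPKM in the early libraries and at 175 in EGF 24 h. So 3 members of the amino acid response list (CTH, SESN2 and TRIB3) were in this set. EREG was highest in EGF 24 h too, at 26.6 RPKM against 7.92 to 13.4 in the early libraries. Of the lower genes 28 held at most 1 in 2 of the RPKM of every other library. PDZK1IP1 was at 40.5 to 55.8 RPKM in the early libraries against 11.6, and SEPP1 at 14.6 to 20.9 against 3.49. AGR2 was at 185 to 213 RPKM against 67.5. The vasoconstrictor peptide gene EDN1 was at 17.3 to 26.9 RPKM in the early libraries, 15.5 in mock, 14.5 in ANG 24 h and 5.22 in EGF 24 h.

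**Figure D4:**
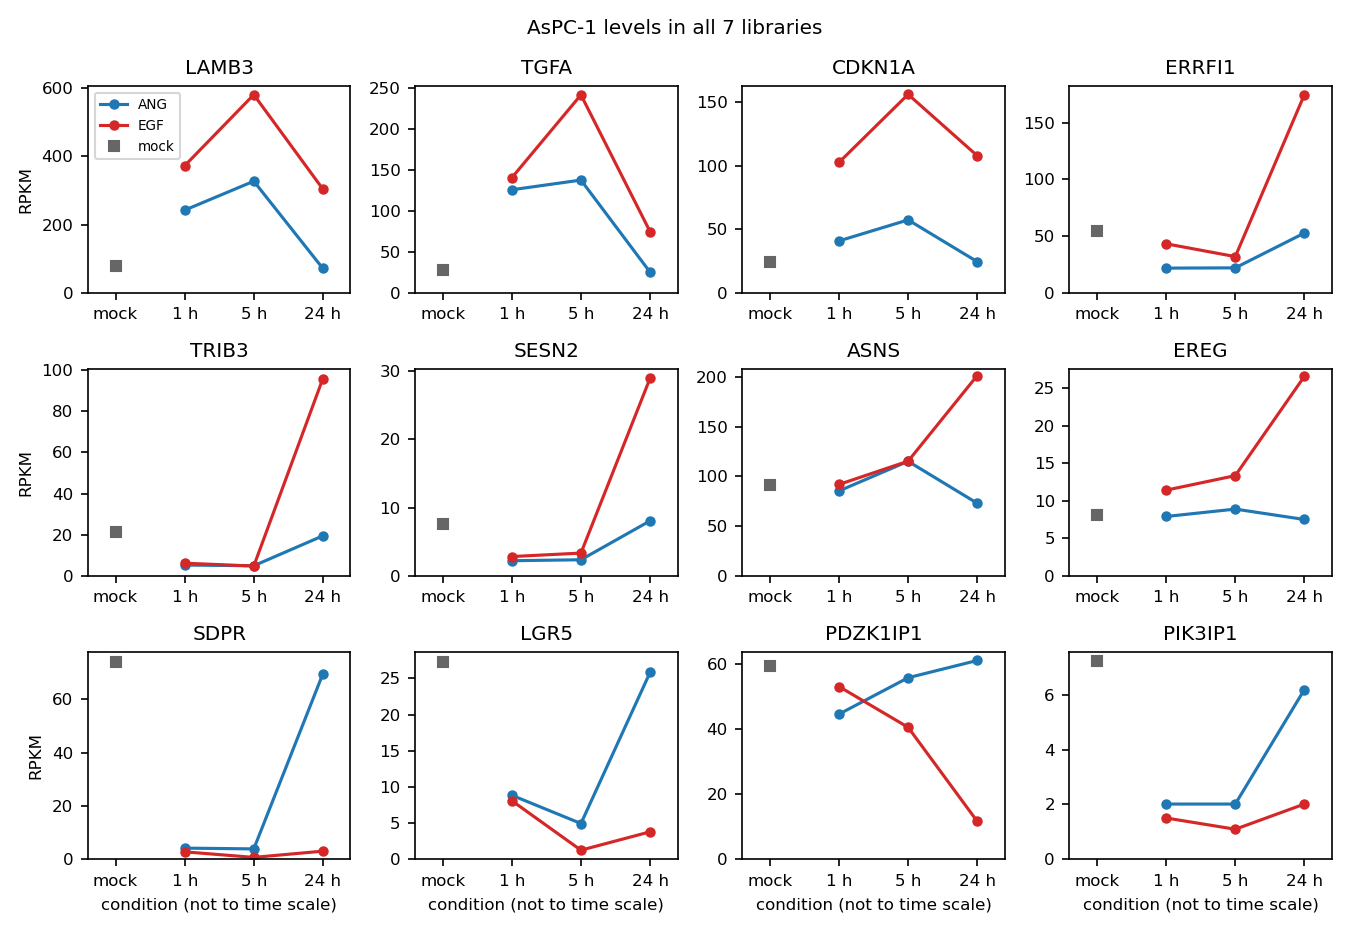
RPKM of 12 genes in the 7 AsPC-1 libraries, with mock as a grey square, ANG in blue and EGF in red at 1, 5 and 24 h (positions not to time scale, 1 library per point). LAMB3, TGFA and CDKN1A are highest at 5 h of EGF, TRIB3, SESN2, ASNS, ERRFI1 and EREG at 24 h of EGF, and SDPR, LGR5 and PIK3IP1 are low in the early libraries of both ligands and in EGF 24 h.

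In Panc-1 the same comparison gave fewer genes past 2-fold: 8 of 11950 tested were higher against both references (0.0669%) and 4 lower (0.0335%). Of the 82 genes higher in AsPC-1, 70 were tested in Panc-1, and 40 of them were above both Panc-1 references (57.1%, against 27.8% of the 10635 genes tested in both lines) and 17 under both. The only one past 2-fold was BMP6, at 10.1 RPKM in Panc-1 mock, 8.89 in ANG 24 h and 21.1 in EGF 24 h. Of the 245 lower genes 141 were tested in Panc-1, and 79 were under both references (56.0%, against 39.0%), 30 above both and 0 past 2-fold the same way. Many of the lower genes were hardly expressed in Panc-1: 105 of 245 were under 1 RPKM in its mock library (42.9%), against 13 of 82 higher genes (15.9%) and 8.06% of all genes tested. CDKN1A was at 44.3, 40.6 and 61.7 RPKM in Panc-1, above both references by less than 2-fold. TRIB3 was at 32.0, 32.3 and 38.8 RPKM in Panc-1 and, unlike in AsPC-1, at 112 to 128 RPKM in the early libraries. That the response differed in size between the lines was not tested.

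**Figure D5:**
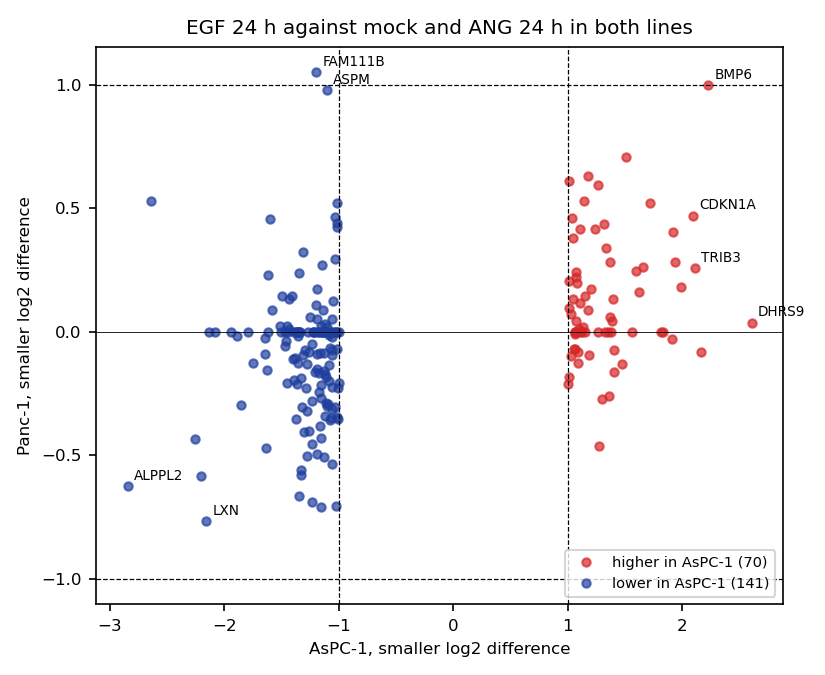
Log2(RPKM + 1) difference of EGF 24 h in AsPC-1 (horizontal) and Panc-1 (vertical) for the 70 higher and 141 lower genes tested in both lines, each as the smaller in size of the differences from mock and ANG 24 h, set to 0 where these had opposite signs. Only BMP6 lies past 1 on both axes, and FAM111B lies past 1 in Panc-1 and past -1 in AsPC-1.

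The lines are the only repeat of a condition, so EGF 24 h was tested against the mean of mock and ANG 24 h with limma over all 14 libraries, in an additive model of line and condition. Of 12780 genes 0 were higher and 0 lower at a Benjamini-Hochberg adjusted p under 0.05, and 967 had an unadjusted p under 0.05 (202 higher and 765 lower). The smallest limma adjusted p was 0.501, a value that CDX2 shared with other genes, at a log2 difference of -0.84 ± 0.16 (SE). BMP6 had a log2 difference of 1.69 ± 0.46 (limma adjusted p = 0.539), CDKN1A 1.32 ± 0.37 (limma adjusted p = 0.546) and ALPPL2 -1.79 ± 0.49 (limma adjusted p = 0.546). A response present in 1 line counts as spread in this test. That spread is the disagreement between the lines over all conditions, the 1 h and 5 h libraries included. It is not a spread between replicates.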

How the data were processed

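The deposited files hold, per the file headers, each gene's position and its log2 RPKM, computed by the authors. Coordinates are in hg19 according to the submitters' processing notes. Aligner, counting tool, annotation and strand use: not given in the sources used here. Values were turned back to RPKM, the lowest log2 value of -8.966 being read as 0, and differences taken on log2(RPKM + 1), which understates low genes. Depth was estimated from the steps of genes of at most 150 bp, which were whole reads within 0.1 for 92.9 to 100% of values. Depth over all 14 libraries was 11.1 to 23.7 M reads. It covers counting error only, and no counts per gene were rebuilt.

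Groups came from the labels. The comparison, gene lists and tests were chosen with earlier results of these data known. The genes named were the 14 highest and 14 lowest by the smaller of the 2 differences, up to 3 per list, and EGFR, ANG, EGF, EGR1, DUSP6, MYC, CCND1 and CDKN1A. List members past 2-fold beyond these, and members given with their time courses, were named after their values were seen. Unnamed loci, open reading frames, small RNAs, antisense RNAs and pseudogenes were skipped, and some genes that the rule took are not reported here. Tests ran in limma 3.58.1 (R 4.3.3) with a variance trend on genes of at least 1 RPKM in at least 2 libraries. On simulated data of 12780 genes, 200 of them changed, limma recovered 53% of those changed 2-fold and 86% of those changed 4-fold. Of its calls 7.95% were false. These shares are for the comparison over both lines. Recovery of a response present in only 1 line was not tested.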

Additional observations from a re-analysis of the deposited data

Results flagged for a closer look

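Of the genes past 2-fold in AsPC-1, those at least 1.5-fold the other way against both references in Panc-1 are given here, with the lists whose medians were at least 0.1 (log2) in opposite directions. They came to 4 results, and the difference between the lines was not tested. ASPM, a spindle protein, had a mean log2 difference of -1.21 in AsPC-1 (39.9 RPKM in mock, 34.2 in ANG 24 h and 15.4 in EGF 24 h) and of 1.03 in Panc-1. FAM111B, a protease gene, had -1.22 in AsPC-1 (12.6, 12.2 and 4.75 RPKM) and 1.08 in Panc-1. The median of the G2 and mitosis list was -0.44 in AsPC-1 and 0.20 in Panc-1, and that of the metallothioneins was -0.27 and 0.45. In AsPC-1, ASPM stood at 1.54 to 2.58 RPKM and FAM111B at 1.05 to 3.14 RPKM in the 1 h and 5 h libraries, under EGF 24 h in both genes. In Panc-1, ASPM was at 3.95 RPKM in mock, 4.32 in ANG 24 h and 9.5 in EGF 24 h. FAM111B was at 1.49, 1.6 and 4.39 RPKM there. The early Panc-1 libraries lay above these levels, at 18.7 to 24.1 RPKM for ASPM and 6.81 to 9.76 for FAM111B. In both lines EGF 24 h thus lay between mock and the early libraries, and the cause was not tested.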

How the results depend on the processing

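Over 10 alternative settings 1200 values of named genes were recomputed, of which 395 moved by more than the SD of the 2 differences, and 0 of the genes past 2-fold reversed. Settings that changed only the filter on level or span could not move or reverse a gene's value. Mock alone and ANG 24 h alone could not move it past that SD. The 395 thus came from the settings of pseudocount and scale, and their share of the 1200 understates how far those settings mattered. Of 33 list medians 24 kept their sign in every setting and 9 did not. A pseudocount of 0.1 gave 129 higher and 538 lower genes, with 4.65% and 7.43% of the lower at least 2-fold under ANG at 1 h and 5 h. A pseudocount of 5 gave 40 and 82, with 0% and 1.22% at least 2-fold under ANG at 1 h and 5 h, and 46.5% lower in Panc-1. With no filter on level, 45.3% of the lower were lower in Panc-1. Centred libraries gave 168 and 149, and 4.76% of the higher at least 2-fold above ANG at 5 h. A common sum gave 4.40% there. A 1.5-fold threshold gave 342 and 1147, and 28.4% of the higher at least 1.5-fold above ANG at 5 h. A 4-fold threshold gave 5 and 20, with 80% of the higher also higher in Panc-1 and 0% apart by that fold at 1 h or 5 h in either direction. Against mock alone 74.9% of the lower were lower in Panc-1, and against ANG 24 h alone 73.4% of the higher were higher. In these 2 settings Panc-1 too was compared with that reference alone, a looser rule than the same sign against both. The median ratio with the filter raised to 10 RPKM, added after seeing the data, gave 122 lower genes. In that setting 70.8% of the higher were also higher in Panc-1 and 7.38% of the lower at least 2-fold under ANG at 5 h. Apart from the change of threshold, filter, scale or reference itself, the cause was not tested. limma called 0 genes in every setting, with 432 to 2137 at an unadjusted p under 0.05; leaving out each of the 6 mock, ANG 24 h and EGF 24 h libraries in turn gave 0 to 0 genes and a smallest adjusted p of 0.0722 (without Panc-1 EGF 24 h) to 0.991. No paired analysis was possible because each group holds 1 library and the labels number no replicates, so conditions were matched by line alone, through the model's term for it. Depth limits genes near 1 RPKM: 1 read in 2 kb is worth up to 0.0251 RPKM in these libraries.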
